A study of Caenorhabditis elegans with 6 samples.

Results

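Molecular chaperones were examined in whole young adult *C. elegans* that lacked *vhl-1*. The genes were taken by name: every gene whose WormBase symbol begins with *hsp-* (heat shock protein), *dnj-* (DnaJ domain protein) or *cct-* (chaperonin containing TCP-1), together with *daf-21*, *sip-1* and *hsf-1*, provided it had at least 10 reads in at least 3 of the 6 libraries. The name rule took 61 genes and the read minimum kept 57 of them, out of 46778 gene identifiers in all. The annotation lists *daf-21* under its other name, *hsp-90*, which is used from here on. RNA was sequenced from 3 libraries of wild type animals (strain N2) and 3 of *vhl-1* mutants (strain CB5602, allele *ok161*, a null mutation of the worm counterpart of the tumor suppressor VHL). Both genotypes were grown at 20 °C, no heat shock is described, and age-synchronized young adults were harvested whole. The mutants came from a single strain, so whatever else differs between the strains cannot be told apart from the loss of *vhl-1*. In whole animals, fewer cells of a type and less RNA per cell cannot be told apart either.

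Chaperones bind unfolded or partly folded proteins and help them to reach or keep their folded state. HSP70 proteins bind and release short stretches of their clients in a cycle driven by ATP. DnaJ proteins bring the clients to HSP70 and start the hydrolysis of ATP, and HSP110 proteins help HSP70 to exchange its nucleotide. HSP90 acts on clients that are nearly folded, chaperonins enclose a client in a barrel, and small heat shock proteins hold aggregation-prone proteins without using ATP. The cytosol, the endoplasmic reticulum (ER) and mitochondria each have their own set. In the cytosol, the transcription factor HSF-1 drives the heat-inducible genes, whereas the ER and mitochondria signal through the IRE-1, PEK-1 and ATF-6 branches of the unfolded protein response and through ATFS-1, respectively. VHL-1 is the substrate receptor of a ubiquitin ligase that removes the hypoxia factor HIF-1. The genotypes were compared to see whether chaperone genes of any of these compartments differed in level when VHL-1 is lost.

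The libraries held between 52462303 and 82910026 reads on genes, and the 57 chaperone genes took 1.419% to 1.604% of the reads of a library. A gene's level is given below as CPM, its reads scaled to a library of 1000000 reads with TMM factors, with the values of replicates 1, 2 and 3 in this order. Levels of different genes are compared only as RPKM, the same value per kilobase of annotated exon. The mutation was visible in the counts, since *vhl-1* had 6.37, 7.07 and 7.48 CPM in wild type animals and 0.0830, 0.0369 and 0.0162 CPM in *vhl-1* mutants (log2 fold change -7.14, adjusted p = 0.00066, edgeR's quasi-likelihood test). Libraries of the same genotype differed in genes of the germ line. The summed level of 11 oocyte and eggshell genes was 2842, 1401 and 845 CPM in wild type animals and 2446, 525 and 1568 CPM in *vhl-1* mutants, so the libraries numbered 1 were richest in oocyte transcripts in both genotypes. Of the 7 sperm genes and the 6 body wall muscle genes listed as markers, all were detected, with sums of 258 to 410 CPM and of 8922 to 10897 CPM.

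Of the 57 chaperone genes, 1 was called as different between the genotypes (edgeR adjusted p under 0.05). The small heat shock protein gene *hsp-12.3* was called as higher in *vhl-1* mutants, and none was called as lower. edgeR's filter on weak genes left 56 of the 57 for the test, with p-values adjusted over all 16596 genes tested, and the 1 gene called is 1.79% of them. Over all tested genes 1.25% were called, and 0.874% were called as higher in *vhl-1* mutants, so the share among chaperones was close to the background. DESeq2 also called 1 of the 57, again *hsp-12.3*, against 3.40% of all genes. Without adjustment, 1 of 56 genes had a p under 0.05 with edgeR and 2 of 57 with DESeq2 (*hsp-12.3* and *hsp-70*). Over all genes tested, the same held for 1557 of 16596 with edgeR and 1663 of 16595 with DESeq2. The 3 libraries of one genotype lay entirely above or below those of the other in 2 of 56 chaperone genes (3.57%), *hsp-12.3* and *hsp-110*, and in 14.5% of all genes tested, a difference in shares that was not tested.

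The compartments lay close to each other. The median log2 fold change of *vhl-1* mutants over wild type was -0.039 for the 29 tested genes of the cytosol and nucleus, 0.036 for the 6 of the ER and 0.080 for the 5 of mitochondria, beside 0.0059 for all genes tested. The ER median turned to -0.074 without wild type replicate 1 and -0.044 without *vhl-1* replicate 2, and the mitochondrial median to -0.0096 without wild type replicate 2. A further 15 DnaJ genes were assigned to no compartment, and their median was 0.0020. Over all 56 chaperone genes 27 values were positive and 29 negative. The measurements were comparatively narrow. In 44 of the 56 chaperone genes (78.6%) the 95% interval of the log2 fold change lay within 0.5 on either side of 0, a change of less than 1.41-fold in either direction, and the same held for 34.7% of all genes tested. The widest intervals were those of the weakly expressed *hsp-16* genes and *hsp-70*, together with *sip-1*, *hsp-43* and *dnj-27*, which varied between libraries of the same genotype.

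**Figure D1:**
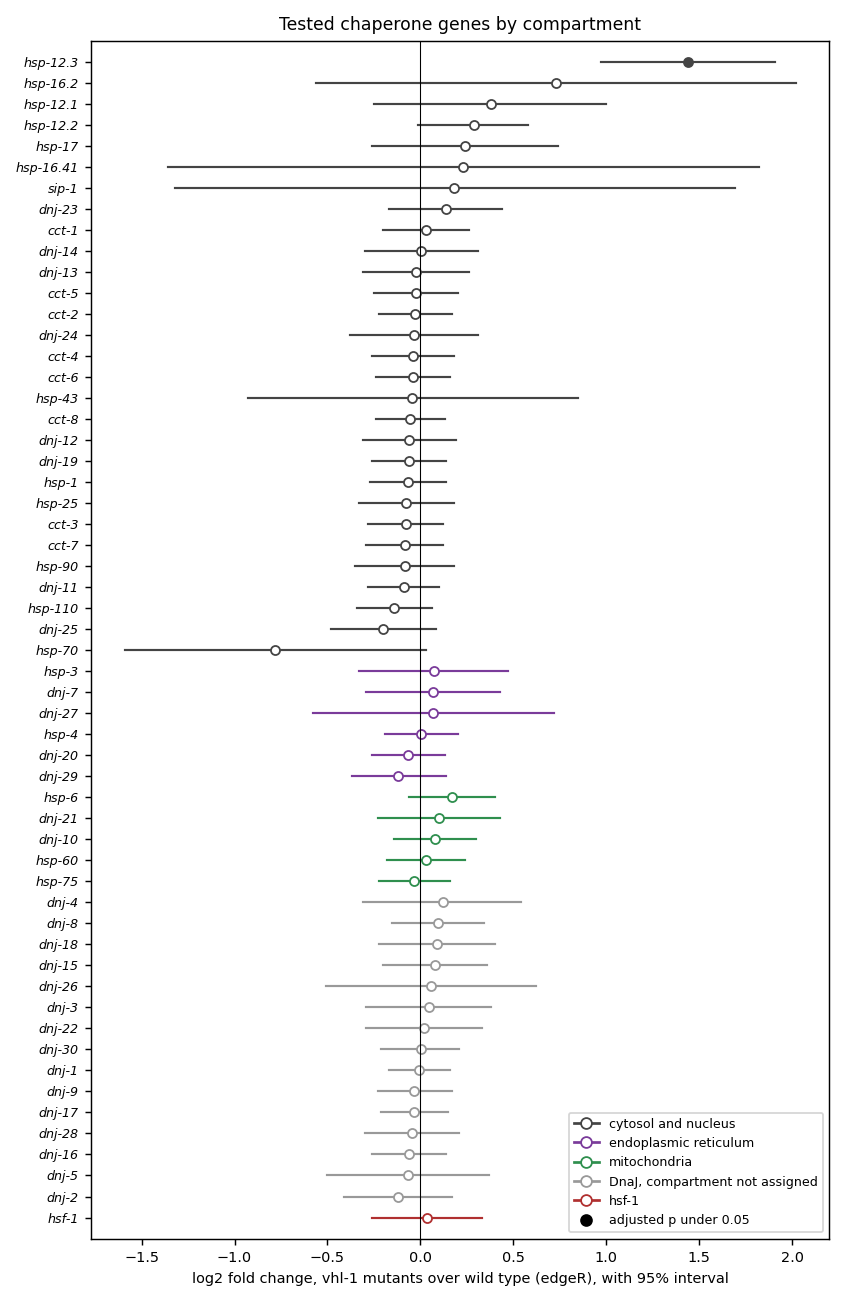
Log2 fold change of *vhl-1* mutants over wild type animals (horizontal axis, edgeR) for the 56 tested chaperone genes, grouped and coloured by compartment, with lines for the 95% interval. *hsp-12.3* is the one filled point, with an adjusted p under 0.05, at 1.44, and the other points lie between -0.78 and 0.73.

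The highest levels among the chaperone messages were those of a few constitutive genes. *hsp-1*, which encodes the constitutive cytosolic HSP70 (HSC70), had the highest level of all members, 1403 RPKM in wild type animals. *hsp-90*, the single cytosolic HSP90 gene of the worm, followed with 1058 RPKM. Together they made up 33.17% to 36.19% of the chaperone reads of a library. The ER HSP70 gene *hsp-3* came next with 551 RPKM, then the chaperonin gene *cct-5* with 330 RPKM and the mitochondrial HSP70 gene *hsp-6* with 245 RPKM. These 5 genes held the same 5 ranks in *vhl-1* mutants. At the other end, 4 members of the small heat shock protein and HSP70 families had means under 1 RPKM in wild type animals, namely the heat-inducible *hsp-70*, *hsp-16.2* and *hsp-16.41*, and *hsp-12.6*.

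**Figure D2:**
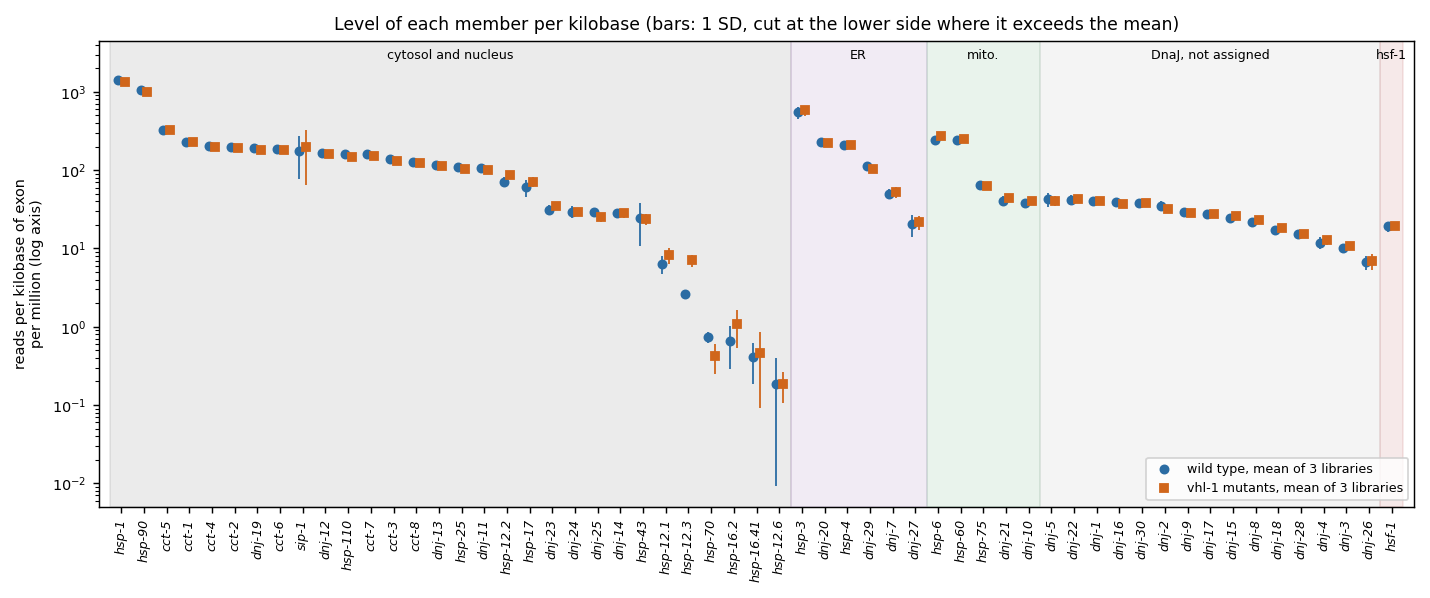
Mean level of each of the 57 chaperone genes in RPKM (log axis), ordered by compartment and by level, for wild type animals (circles) and *vhl-1* mutants (squares), with bars of 1 SD over 3 libraries. The symbols of both genotypes lie on or beside each other except for weakly expressed genes, and *hsp-1* at 1403 in wild type animals is the highest.

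The small heat shock proteins were examined first among the cytosolic chaperones. Their 10 genes had the highest median change of the families, 0.24 on the log2 scale over the 9 that were tested, and 7 of the 9 values were positive, but only *hsp-12.3* passed the test. HSP-12.3 belongs to a group of very short small heat shock proteins of the worm, which have hardly any sequence outside the conserved alpha-crystallin domain and which, where they were studied in vitro, did not act as chaperones. *hsp-12.3* (WBGene00002012) lies on chromosome IV of WBcel235, 9444791 to 9445507 on the minus strand, with 2 exons that overlap no other annotated gene. It had 126, 118 and 85 reads in wild type animals and 478, 339 and 260 reads in *vhl-1* mutants. Scaled to library size, these were 1.6, 1.89 and 1.71 CPM in wild type animals (mean 1.73 ± 0.145, SD, n = 3) and 5.67, 4.16 and 4.22 CPM in *vhl-1* mutants (mean 4.68 ± 0.852, SD, n = 3). Every mutant library lay above every wild type library.

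In the fit, *hsp-12.3* was 2.70-fold higher in *vhl-1* mutants (log2 fold change 1.44, SE 0.20, 95% interval 0.97 to 1.91, adjusted p = 0.029, edgeR's quasi-likelihood test). DESeq2 gave a log2 fold change of 1.43 for *hsp-12.3* with an adjusted p of 6.9e-08. The size of the change held when single libraries were left out, at 1.27 to 1.51, but the call did not. The edgeR adjusted p was 0.075, 0.15 and 0.13 without wild type replicates 1, 2 and 3, and 0.078, 0.047 and 0.14 without *vhl-1* replicates 1, 2 and 3, so that it stayed under 0.05 in 1 of the 6 fits. The number of genes called over all genes also went down in these smaller fits, to between 49 and 161 from 207. Within the mutants, *hsp-12.3* had the same order as the oocyte marker sums, with replicate 1 highest and replicate 2 lowest. Its values in *vhl-1* replicates 2 and 3 were nearly equal, however, at 4.16 and 4.22 CPM. Within wild type animals the library richest in oocyte transcripts, replicate 1, had the lowest *hsp-12.3* value. The part of oocyte content in its level was not tested.

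The genes around *hsp-12.3* were compared next. *hsp-12.6*, another very short small heat shock protein gene, known from worm studies as a target of DAF-16 in long-lived insulin receptor mutants, lies 722 bases away on the same strand. It was the member nearest to the read minimum, with 26, 2 and 3 reads in wild type animals and 10, 8 and 13 in *vhl-1* mutants. Its means were 0.141 and 0.143 CPM, and it was too weak for the edgeR test (DESeq2 adjusted p = 1.00). On the other side, F38E11.9 lies 751 bases from *hsp-12.3* and had 0.12 on the log2 scale (edgeR adjusted p = 1.00). *idh-1*, which encodes an isocitrate dehydrogenase and lies 3684 bases away, had 0.38 (edgeR adjusted p = 0.85), and *cutl-17* and *cpin-1* on the far side of *hsp-12.6* had -0.093 and -0.19. Among the tested protein-coding genes within 10 kb, only *hsp-12.3* was called.

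Among the other relatives of *hsp-12.3*, *hsp-12.2* and *hsp-12.1* had smaller positive values that did not pass the test. *hsp-12.2* had 33.4, 34.4 and 43.3 CPM in wild type animals and 42.9, 48.4 and 44.1 CPM in *vhl-1* mutants. The third wild type library lay within the range of the mutants, and the log2 fold change was 0.29 (SE 0.12, 95% interval -0.013 to 0.58, edgeR adjusted p = 0.58). *hsp-12.1* had 2.42, 3.04 and 4.05 CPM against 3.40, 5.18 and 3.72 CPM. Its log2 fold change of 0.38 had a 95% interval from -0.25 to 1.00 (edgeR adjusted p = 0.85), so a change of the size seen for *hsp-12.3* lay outside it. Without *vhl-1* replicate 2 the value of *hsp-12.1* was 0.17.

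The heat-inducible *hsp-16* genes, classic targets of HSF-1 and widely used as reporters of the heat shock response, were near the limit of detection in both genotypes. *hsp-16.2* (WBGene00002016, chromosome V, 1804334 to 1804957) had 25, 38 and 10 reads in wild type animals and 28, 79 and 36 in *vhl-1* mutants. *hsp-16.41* (WBGene00002018), its divergently transcribed neighbour from 1805178 to 1805875, had 11, 26 and 11 reads and 12, 47 and 11 reads. Both genes were highest in the libraries numbered 2, and the genotypes overlapped. The log2 fold changes were 0.73 for *hsp-16.2* (95% interval -0.56 to 2.02, edgeR adjusted p = 0.87) and 0.23 for *hsp-16.41* (95% interval -1.36 to 1.82, edgeR adjusted p = 1.00). Intervals this wide leave room for a change of either sign, and the value of *hsp-16.2* was 1.24 without wild type replicate 2 and 0.26 without *vhl-1* replicate 2. The remaining genes of the family, the duplicated pairs *hsp-16.1* and *hsp-16.48*, were the 4 that stayed under the read minimum. Both annotated copies of *hsp-16.48* and 1 copy of *hsp-16.1* had no read in any library, and the second copy of *hsp-16.1* (WBGene00002017, chromosome V, 9090077 to 9090604) had 2 reads in 1 wild type library. A floor of 3 reads per library corresponds to 0.0362 to 0.0572 CPM when scaled to library totals without the TMM factors. The copies of each pair are nearly identical, and how the authors counted reads that fit several genes is not given in the sources used here, so the absence of reads is not a measure of their expression.

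The larger small heat shock proteins varied more between libraries than between genotypes. *sip-1*, a small heat shock protein of oocytes and embryos, had 181, 91.3 and 61.4 CPM in wild type animals and 208, 38.8 and 132 CPM in *vhl-1* mutants. Its highest library exceeded its lowest 5.35-fold, and both belonged to the mutants. The log2 fold change was 0.18 (95% interval -1.32 to 1.69, edgeR adjusted p = 1.00), and single libraries moved it between -0.38 and 0.72 when they were left out. The oocyte marker sums given above ran through the libraries with the same 2 highest and the same lowest, and the part of oocyte content in the level of *sip-1* was not tested. An annotated noncoding RNA on the other strand covers 19.22% of the *sip-1* exons, and the strand setting of the counting is not given in the sources used here.

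*hsp-43* had 56.3, 25.3 and 20.9 CPM in wild type animals and 37.1, 35.3 and 27.2 CPM in *vhl-1* mutants, with wild type replicates at both ends of the range. *hsp-25*, whose product is found at the dense bodies and M-lines of body wall muscle, had 115, 118 and 137 CPM against 111, 128 and 111 CPM. *hsp-17* had 24.3, 38.3 and 38.8 CPM against 33.8, 45.7 and 40.2 CPM. None of these 3 genes passed the test, with log2 fold changes of -0.043, -0.078 and 0.24. Removing single libraries moved *hsp-43* between -0.30 and 0.52. *hsp-17*, whose value is also the family's median, was at 0.050 without wild type replicate 1.

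**Figure D3:**
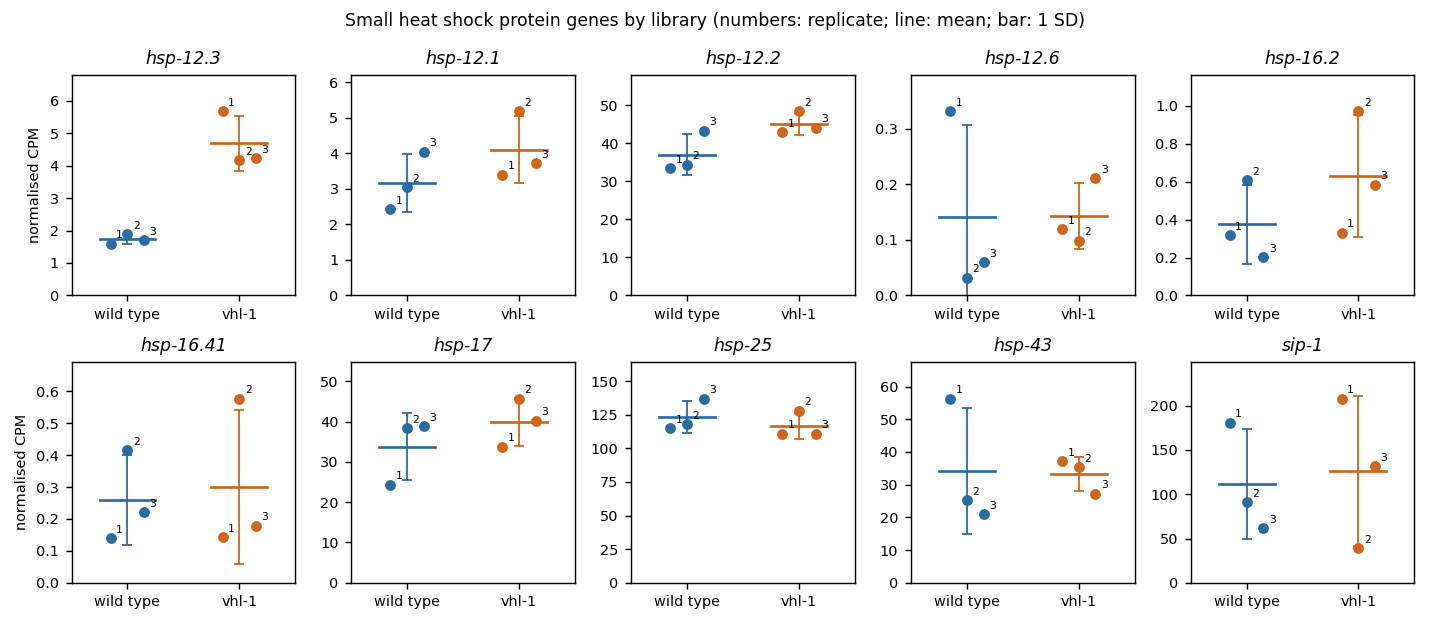
Normalised CPM (vertical axes from 0, scaled for each gene) of the 10 small heat shock protein genes in the 3 wild type and 3 *vhl-1* libraries, with a line for the mean and a bar of 1 SD, which is cut at 0 for *hsp-12.6*, and the replicate number beside each point. Only *hsp-12.3* has no overlap between the genotypes (1.6 to 1.89 against 4.16 to 5.67 CPM), and *sip-1* spreads from 38.8 to 208 CPM within the mutants.

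The 2 abundant ATP-dependent chaperones of the cytosol, *hsp-1* and *hsp-90*, overlapped between the genotypes. *hsp-1* had 3003, 2938 and 2786 CPM in wild type animals and 2686, 2973 and 2685 CPM in *vhl-1* mutants. The log2 fold change was -0.065 (SE 0.087, 95% interval -0.27 to 0.14, edgeR adjusted p = 0.98). *hsp-90* had 2646, 2635 and 2204 CPM against 2299, 2533 and 2228 CPM, and its log2 fold change was -0.085 (95% interval -0.35 to 0.18, edgeR adjusted p = 0.98). For both genes the intervals left out a change of 1.41-fold.

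*hsp-110*, the nucleotide exchange factor that works with HSP-1 and the DnaJ protein DNJ-13 to take apart aggregates, was the second gene without overlap. Its levels were 460, 445 and 401 CPM in wild type animals and 393, 398 and 392 CPM in *vhl-1* mutants. The mutant libraries lay within a few CPM of each other and just under the lowest wild type library. The means were 435 ± 30.5 and 395 ± 3.24 CPM (SD, n = 3 each), and the difference did not pass the test of edgeR (log2 fold change -0.14, SE 0.085, 95% interval -0.34 to 0.063, edgeR adjusted p = 0.79). Its partner *dnj-13*, a homolog of human DNAJB proteins, had 157, 179 and 145 CPM against 149, 177 and 147 CPM (log2 fold change -0.022, edgeR adjusted p = 1.00).

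*hsp-70*, the heat-inducible cytosolic HSP70, had the lowest log2 fold change of all chaperone genes. It had 97, 105 and 83 reads in wild type animals and 63, 106 and 37 in *vhl-1* mutants, which were 1.23, 1.68 and 1.67 CPM against 0.747, 1.30 and 0.600 CPM. The mutant mean was lower (0.883 ± 0.370 against 1.53 ± 0.254 CPM, SD, n = 3 each), but *vhl-1* replicate 2 lay within the wild type range. The log2 fold change of -0.78 (SE 0.34, 95% interval -1.59 to 0.030) did not pass the test after adjustment (edgeR adjusted p = 0.57, DESeq2 adjusted p = 0.40). Without 1 library at a time it ranged from -1.17 to -0.57. Per kilobase, *hsp-1* was 1660 to 4436 times as abundant as *hsp-70* in a library. The 2 other inducible HSP70 genes, F44E5.4 and F44E5.5, which form a divergent pair of near-identical copies, had at most 0.283 and 0.553 CPM in any library and were not called. Reads that fit both copies may have been counted differently, so these counts need not measure their expression.

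The chaperonin CCT folds actin and tubulin and is built from 8 different subunits, each encoded by its own gene. None of *cct-1* to *cct-8* was called. Their log2 fold changes lay between -0.084 for *cct-7* and 0.030 for *cct-1*, with 7 of 8 values negative and a median of -0.040, and the 95% intervals of all 8 together ran from -0.29 to 0.26. The summed level of the subunits was 3238, 3254 and 3077 CPM in wild type animals and 2996, 3348 and 2983 CPM in *vhl-1* mutants. The genotypes overlapped, with *vhl-1* replicate 2 highest and the other mutant libraries lowest. Although the subunits enter the complex in equal numbers, their messages were not equal. Per kilobase, *cct-5* was the highest and *cct-8* the lowest in each of the 6 libraries, 2.57 to 2.82 times apart, and the coefficient of variation over the subunits was 31.9% to 35.7% within a library. The ends of this order were the same in both genotypes.

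**Figure D4:**
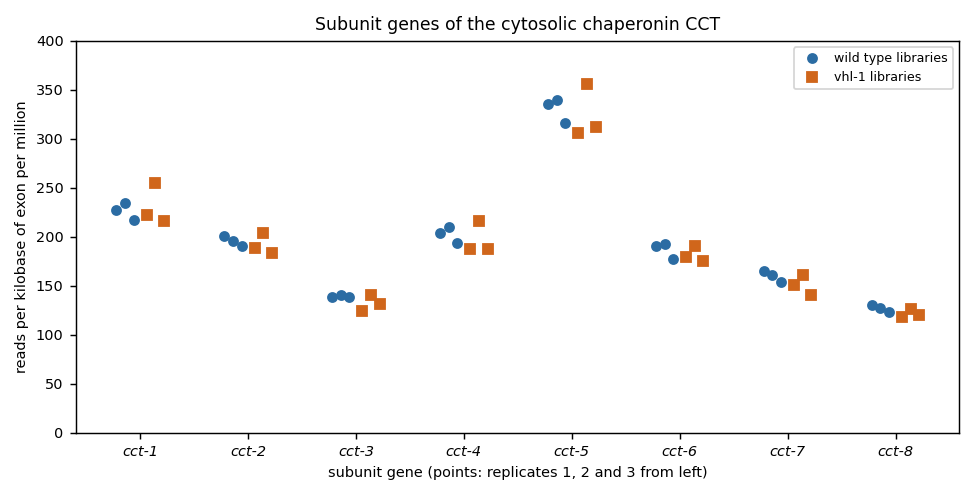
Level of the 8 CCT subunit genes in RPKM (vertical axis from 0) in each of the 3 wild type (circles) and 3 *vhl-1* libraries (squares), replicates 1, 2 and 3 from left. *cct-5* is the highest and *cct-8* the lowest subunit in every library, 2.57 to 2.82 times apart, and the genotypes overlap for each subunit.

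The 8 DnaJ genes of the cytosol had a median log2 fold change of -0.047, and none was called. *dnj-25*, the worm auxilin, which recruits HSP-1 to uncoat clathrin vesicles, had the lowest value. It had 77.8, 75.7 and 80.5 CPM in wild type animals and 76.5, 57.3 and 70.1 CPM in *vhl-1* mutants. The log2 fold change of *dnj-25* was -0.20 (95% interval -0.48 to 0.086, edgeR adjusted p = 0.78), and only *vhl-1* replicate 1 reached the wild type values. *dnj-14*, the cysteine string protein of synaptic vesicles, had 29, 34.9 and 35.5 CPM against 30.3, 37.6 and 31.6 CPM, a log2 fold change of 0.0039 that changed sign with the scaling of the libraries. The DNAJA homologs *dnj-12* and *dnj-19* had -0.059 and -0.060, the ribosome-associated zuotin homolog *dnj-11* had -0.088, *dnj-23* had 0.14 and *dnj-24* had -0.035 on the log2 scale.

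Co-chaperones that the name rule does not reach were taken from a list of 18 genes. It holds the HSP90 partners *sti-1*, *daf-41*, *cdc-37* and *pph-5*, the myosin chaperone *unc-45*, the HSP70 partners *hip-1*, *bag-1*, *unc-23* and *chn-1*, the 6 prefoldin subunits, which hand nascent actin and tubulin to CCT, and the HSF-1 inhibitors *hsb-1*, *ddl-1* and *ddl-2*. None of the 18 passed the test in either direction with edgeR or DESeq2, and none had an unadjusted p under 0.05 with either. With edgeR, 1557 of all 16596 genes tested had such an unadjusted p. Their log2 fold changes lay between -0.15 and 0.085, with a median of -0.00026. *bag-1* had the lowest value, with 35.4, 35.7 and 35.8 CPM in wild type animals and 33.4, 30.6 and 32.1 CPM in *vhl-1* mutants. Its libraries did not overlap, but the adjusted p was 0.72 (edgeR). Over all genes tested, the share without overlap was 14.5%.

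*hsf-1* itself, the regulator of the cytosolic response, had 54.9, 44.6 and 42.6 CPM in wild type animals and 51.6, 44.9 and 49.0 CPM in *vhl-1* mutants. The libraries numbered 1 were highest in both genotypes. The log2 fold change was 0.034 (SE 0.12, 95% interval -0.26 to 0.33, edgeR adjusted p = 1.00). The activity of HSF-1 is set largely after transcription, and counts of its message do not measure it.

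In the ER, none of 6 chaperone genes was called and the log2 fold changes lay between -0.12 and 0.071. The worm has 2 genes for BiP, the ER HSP70. *hsp-3*, the more abundant one, had 1175, 1630 and 1603 CPM in wild type animals and 1321, 1763 and 1547 CPM in *vhl-1* mutants. *hsp-4*, the one widely used as a reporter of the unfolded protein response, had 445, 496 and 474 CPM against 468, 479 and 472 CPM. The log2 fold changes were 0.071 for *hsp-3* (95% interval -0.33 to 0.47, edgeR adjusted p = 1.00) and 0.0032 for *hsp-4* (95% interval -0.19 to 0.20, edgeR adjusted p = 1.00), and that of *hsp-4* turned to -0.0063 with DESeq2. Per kilobase, *hsp-3* was 2.21 to 3.08 times as abundant as *hsp-4* in a library.

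The DnaJ partners of BiP gave the same picture. *dnj-20*, the ERdj3 homolog, had 510, 503 and 548 CPM in wild type animals and 487, 483 and 520 CPM in *vhl-1* mutants (log2 fold change -0.067, edgeR adjusted p = 0.97). *dnj-29*, the homolog of SEC63 of the translocation channel, had 278, 310 and 345 CPM against 271, 307 and 283 CPM (log2 fold change -0.12, edgeR adjusted p = 0.92). *dnj-7*, the DNAJC3 homolog, had 82.6, 107 and 105 CPM against 87.5, 118 and 103 CPM. *dnj-27*, the homolog of the disulfide reductase ERdj5, had 32.6, 61.5 and 60.1 CPM against 42, 63.6 and 56.0 CPM. For *dnj-7* and *dnj-27* the libraries numbered 1 were lowest in both genotypes, and the log2 fold changes were 0.070 and 0.068 (edgeR adjusted p = 1.00 for both).

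Among 13 further genes of ER folding and stress signaling, none passed the test with edgeR or DESeq2. *pek-1*, which encodes the PERK kinase of the unfolded protein response, had the highest value and the only unadjusted p under 0.05 with edgeR. It had 38.3, 42.5 and 41.3 CPM in wild type animals and 45.3, 57.8 and 52.8 CPM in *vhl-1* mutants, without overlap (log2 fold change 0.35, edgeR adjusted p = 0.32). *ire-1*, which encodes the kinase and nuclease that splices the message of *xbp-1*, had 0.021 on the log2 scale. *xbp-1* had 289, 285 and 340 CPM against 284, 259 and 270 CPM, also without overlap but lower in the mutants (log2 fold change -0.17, edgeR adjusted p = 0.78). *sel-1* was the third gene of the list without overlap, also lower in the mutants (log2 fold change -0.086, edgeR adjusted p = 0.90). Of all genes tested, 14.5% were without overlap, and 1557 of 16596 had an unadjusted p under 0.05 with edgeR. Counts per gene do not separate the spliced from the unspliced form of *xbp-1*. *atf-6*, which encodes the third stress sensor, and *enpl-1*, the ER HSP90 gene, both had 0.20 on the log2 scale (edgeR adjusted p = 0.97 and 0.92). The lectin chaperone genes *crt-1* (calreticulin) and *cnx-1* (calnexin) had 0.11 and -0.10, and the protein disulfide isomerase genes *pdi-1*, *pdi-2*, *pdi-3* and *pdi-6* had 0.10, 0.30, -0.084 and 0.033 on the log2 scale. The median of the list was 0.033.

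In mitochondria, 5 chaperone genes were measured and none was called. *hsp-6*, the mitochondrial HSP70 (mortalin) and a standard reporter of the mitochondrial unfolded protein response, had 648, 594 and 567 CPM in wild type animals and 644, 731 and 654 CPM in *vhl-1* mutants. The mutant mean was 1.12-fold that of wild type, with wild type replicate 1 inside the mutant range (log2 fold change 0.17, SE 0.096, 95% interval -0.063 to 0.40, edgeR adjusted p = 0.76). *hsp-60*, the mitochondrial chaperonin, had 558, 490 and 500 CPM against 509, 537 and 538 CPM (log2 fold change 0.032, 95% interval -0.18 to 0.24, edgeR adjusted p = 1.00). Both genes had nearly the same level per kilobase, with a ratio of *hsp-6* to *hsp-60* of 0.978 to 1.17.

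*hsp-75*, the mitochondrial HSP90 (TRAP1), had 136, 143 and 131 CPM in wild type animals and 129, 140 and 132 CPM in *vhl-1* mutants, and its log2 fold change of -0.032 had a 95% interval from -0.22 to 0.16. *dnj-10*, the homolog of the mitochondrial DnaJ protein TID1, had 67.6, 65.6 and 63.2 CPM against 65.6, 76.2 and 65.8 CPM (log2 fold change 0.080). *dnj-21*, the homolog of PAM18, which stimulates mitochondrial HSP70 at the import channel, had 17.9, 14.6 and 19.7 CPM against 18.5, 18.4 and 19.2 CPM (log2 fold change 0.10). Both had an overlap of the genotypes and edgeR adjusted p-values of 0.96 and 0.98. Of the 7 genes listed for mitochondrial stress and proteolysis, *atfs-1*, *dve-1*, *ubl-5*, *haf-1*, *clpp-1*, *lonp-1* and *spg-7*, none passed the test with edgeR or DESeq2. The transcription factor gene *atfs-1* had -0.071, and the values of the list lay between -0.23 for *haf-1* and 0.083 for *ubl-5*. *haf-1* was the one gene of this list without overlap, with 4.26, 4.82 and 4.43 CPM against 3.38, 4.21 and 3.94 CPM (edgeR adjusted p = 0.84). The share without overlap over all genes tested was 14.5%.

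The 15 DnaJ genes that were assigned to no compartment had log2 fold changes between -0.12 and 0.12, and none was called. *dnj-2* was at the lower end with 37, 46.1 and 49.6 CPM in wild type animals and 40.3, 41.1 and 40.5 CPM in *vhl-1* mutants (edgeR adjusted p = 0.94). *dnj-4* was at the upper end with 14.4, 11.4 and 10.4 CPM against 14.9, 11.3 and 13.1 CPM (edgeR adjusted p = 0.99). The steadiest of all chaperone genes was *dnj-1*, with 68.9, 68.3 and 66.8 CPM against 66.8, 68.0 and 68.3 CPM, a ratio of 1.03 between its highest and lowest library. Over the 6 libraries the 56 tested chaperone genes varied by a median of 1.23-fold between the highest and the lowest library, beside 1.61-fold for all genes tested.

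The order of the libraries was then compared between chaperones and oocyte genes, because libraries of the same genotype differed. All 11 oocyte and eggshell genes had the libraries numbered 1 of both genotypes as the 2 highest and *vhl-1* replicate 2 as the lowest. This order was shared by 4 of 56 chaperone genes, *sip-1*, *dnj-5*, *dnj-26* and *dnj-28*, and by 1861 of all 16596 genes tested. The opposite side was also filled. Wild type replicate 1 was the lowest and *vhl-1* replicate 1 the next for 9 chaperone genes, among them the ER genes *hsp-3*, *hsp-4*, *dnj-7* and *dnj-27*, as well as for 6 of the 13 further ER genes and for 1921 of all genes tested. The 6 were *enpl-1*, which encodes the ER HSP90, *crt-1*, *pdi-1*, *pdi-2*, *pdi-3* and *pdi-6*. For these ER genes, which were picked by this order, the libraries numbered 1 were low in both genotypes, where oocyte transcripts were high. *hsp-4* varied only 1.12-fold between its highest and lowest library, so its order rests on small differences. Of the other ER members, *dnj-29* had the same libraries lowest in reverse order, and *dnj-20* was lowest in *vhl-1* replicate 2. Whether the share of germ line tissue in the samples has a part in these levels was not tested.

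**Figure D5:**
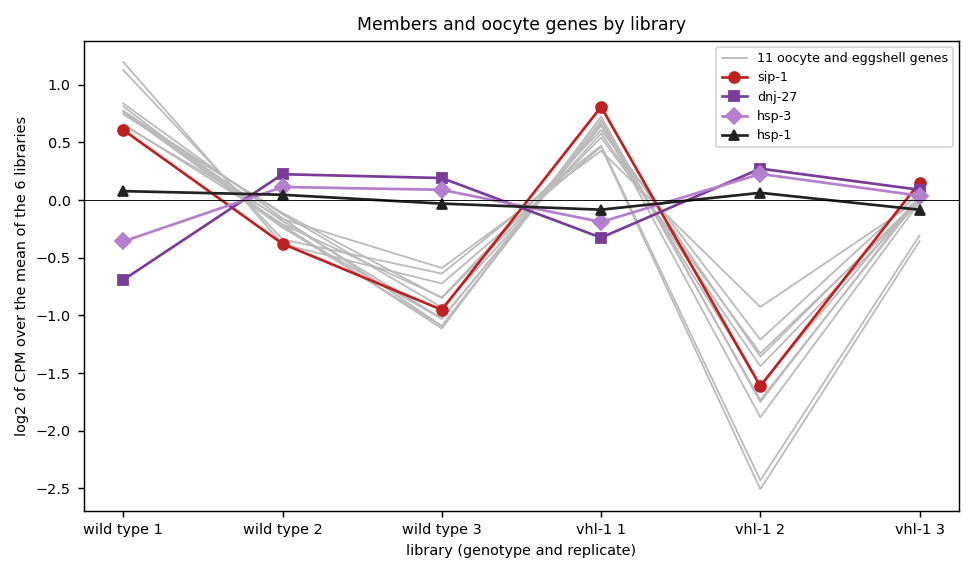
Log2 of the CPM over the mean of the 6 libraries (vertical axis) for *sip-1*, *dnj-27*, *hsp-3* and *hsp-1* (symbols) and for the 11 oocyte and eggshell genes (thin grey lines), by library and replicate. *sip-1* is highest in the libraries numbered 1 and lowest in *vhl-1* replicate 2 as all 11 oocyte genes are, *hsp-3* and *dnj-27* are lowest in the libraries numbered 1, and *hsp-1* stays near 0 throughout.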

How the data were processed

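Whole young adults of 2 genotypes were sequenced in 3 libraries each as single-end reads of 50 bp. Trimming by the authors (Trim Galore 0.4.3.1, FastQC 0.71) was followed by alignment with STAR 2.6.0b and counting per gene with featureCounts 1.6.3, and raw counts without normalization were deposited. The genome build, annotation release, strand setting and treatment of reads that fit several genes are not given in the sources used here. Symbols and coordinates are those of WBcel235 in Ensembl release 115, which held 46603 of 46778 identifiers. The 175 others held 0.0773% of the reads, and 1 blank row per library held none.

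The test of the counts was edgeR 4.0.16 in R 4.3.3 (filterByExpr, TMM, quasi-likelihood test on genotype, all 6 libraries, Benjamini-Hochberg adjustment over 16596 genes, threshold 0.05). The study names DESeq2 and an adjusted p under 0.05 and describes no replicate term. Standard errors were derived from the F statistic of each gene. Alternatives were DESeq2 1.42.0, other scalings, filters and thresholds, each library left out, and a replicate term. Named are called genes, the 5 highest and 5 lowest fold changes, the 5 highest levels, fixed anchors of each family, and genes at the read minimum. *dnj-1*, *dnj-11*, *dnj-12*, *dnj-19*, *dnj-23*, *dnj-24* and *dnj-4*, and those of a shared library order, were named outside this rule, and the neighbours of *hsp-12.3* after its values were seen. The genes and lists were chosen with earlier results of these data known. The tests were checked on simulated counts. The simulation gave every gene the same relative spread and no library differences shared by genes. It does not cover the germ line differences between libraries seen here. Replicates differed by more than sampling noise (chi-square per gene at least 45.8). The labels call them biological replicates without naming separate cultures. The p-values set the genotype difference against the spread between these samples within a genotype.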

Additional observations from a re-analysis of the deposited data

How the results depend on the processing

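The count of 1 chaperone gene called held with DESeq2, other scalings, other filters, a threshold of 0.1 and a replicate term, and became 0 at a threshold of 0.01. Leaving out single libraries gave 0 to 1, with *hsp-12.3* at 1.27 to 1.51 on the log2 scale. Over all genes, 207 were called by edgeR, 650 by DESeq2, of which 145 and 336 were higher in *vhl-1* mutants, and 49 to 161 with single libraries left out. A term for the replicate number (replicate block) gave 354 genes and an adjusted p of 0.040 for *hsp-12.3*, and turned *hsp-43* to 0.085. The labels do not say whether the replicate numbers pair libraries across the genotypes, and the main test had no replicate term. Libraries of the same number deviated from their group means with correlations of 0.549, 0.443 and -0.016. Wild type replicate 3 correlated best with *vhl-1* replicate 2 (0.231), so these values do not settle the pairing. The cause of these differences was not tested.

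Of 444 log2 fold changes recomputed for 37 named genes, 400 kept their direction and side of the threshold, 39 changed sign and 5 (*hsp-12.3*) lost the call. With library totals alone, *cct-2*, *cct-5*, *dnj-13* and *hsp-75* were 0.0061, 0.0068, 0.0083 and 0.00078. *dnj-14* and *hsp-4* were -0.0061 and -0.0063 with DESeq2, and -0.0043 and -0.0044 with its size factors in edgeR. The median over all genes lay between -0.0019 and 0.040 under these scalings. With single libraries left out, the ranges that crossed 0 were -0.045 to 0.076 for *cct-1*, -0.071 to 0.0026 for *cct-2*, -0.098 to 0.015 for *cct-5*, -0.11 to 0.055 for *dnj-13*, -0.094 to 0.064 for *dnj-14*, -0.020 to 0.20 for *dnj-21*, -0.17 to 0.22 for *dnj-27*, -0.042 to 0.17 for *dnj-7*, -0.038 to 0.15 for *hsf-1*, -0.68 to 0.75 for *hsp-16.41*, -0.15 to 2.4e-05 for *hsp-25*, -0.066 to 0.17 for *hsp-3*, -0.037 to 0.031 for *hsp-4*, -0.30 to 0.52 for *hsp-43*, -0.012 to 0.092 for *hsp-60*, and -0.38 to 0.72 for *sip-1*. The medians ranged from -0.0096 to 0.11 for mitochondria, -0.074 to 0.090 for the ER, -0.094 to -0.0030 for the cytosol and -0.044 to 0.0044 for all chaperone genes. *hsp-16.2*, *hsp-12.1* and *hsp-17* kept their sign at 0.26 to 1.24, 0.17 to 0.58 and 0.050 to 0.35. Low counts kept *hsp-12.6* out of the main edgeR test.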

Other observations

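Both values below were noticed after the data were seen. Y22D7AL.10, an HSP10 homolog whose gene lies 813 bases from *hsp-60*, had 169 to 186 CPM in wild type animals and 189 to 218 CPM in *vhl-1* mutants (3 libraries each, log2 fold change 0.18, edgeR adjusted p = 0.68). HSP10 is the lid of the mitochondrial chaperonin. All 3 mutant libraries of Y22D7AL.10 lay above the wild type libraries, and 14.5% of all genes tested were without overlap in either direction. Per kilobase, *hsp-1* was 5.50, 5.87 and 5.83 times as abundant as *hsp-6* in wild type animals and 4.95, 4.83 and 4.87 times in *vhl-1* mutants, although neither gene was called by itself. The ratio did not overlap between the genotypes and was not tested, since it was chosen for that.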
